A study of Mus musculus with 2 samples.

Results

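The genes described here are 10 enzymes and helper proteins of eicosanoid synthesis, the pathway that makes leukotrienes and prostaglandins: Alox5, Alox5ap, Ltc4s, Lta4h, Hpgds, Ptgs1, Ptgs2, Ptges, Tbxas1 and Hpgd. They were chosen by gene symbol, and all 10 were found among the 27275 genes of the deposited table, with 1 row each. The samples were small intestine of naive mice, described as proximal in the study's design text, with 1 library per genotype. The knockout (KO) library is labelled Spibfl/flVillin-Cre, so that Spib is floxed and Cre recombinase comes from a villin-promoter transgene, so deletion is meant for epithelial cells and leaves Spib intact in leukocytes. The wild-type (WT) library is labelled Spib+Villin-Cre, so both genotype labels name the Cre driver. Spib encodes an ETS family transcription factor. The sources used here give neither the age and sex of the mice nor any pooling of RNA.

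Eicosanoids are signalling lipids made from arachidonic acid, which phospholipases cut from membranes. In the leukotriene branch, 5-lipoxygenase (Alox5) works together with its activating protein (Alox5ap) to form leukotriene A4, which leukotriene A4 hydrolase (Lta4h) turns into leukotriene B4 and leukotriene C4 synthase (Ltc4s) into the cysteinyl leukotrienes. In the prostanoid branch, the cyclooxygenases (Ptgs1, constitutive, and Ptgs2, inducible) form prostaglandin H2, from which terminal synthases make prostaglandin D2 (Hpgds), prostaglandin E2 (Ptges) and thromboxane A2 (Tbxas1), and 15-hydroxyprostaglandin dehydrogenase (Hpgd) inactivates prostaglandins. Tuft cells, the chemosensory cells of the intestinal epithelium, express several of these enzymes in mice and release cysteinyl leukotrienes and prostaglandin D2, but mast cells, macrophages, stromal cells and enterocytes express parts of the pathway too.

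The start regions of members are shown because the targeted gene is an ETS factor and because Alox5 had the highest KO over WT ratio of the 10 genes. RefSeq promoters of build GRCm38.p6 were matched by symbol for 9 of the 10 members, and Alox5ap was not matched. Each window of 300 bases, 250 before and 50 after the RefSeq start, was searched on both strands for 8 motifs, and shares refer to 32851 RefSeq promoter windows of the same length. Below are the 250 bases before the start of Alox5 (chr6:116461179-116461428, minus strand) and of Ptgs1 (chr2:36230176-36230425, plus strand), then sites in Hpgds (chr6:65144761-65144790 and chr6:65144886-65144915, minus strand) and Ptgs2 (chr1:150100036-150100063, plus strand). Capitals mark motif matches.
Alox5: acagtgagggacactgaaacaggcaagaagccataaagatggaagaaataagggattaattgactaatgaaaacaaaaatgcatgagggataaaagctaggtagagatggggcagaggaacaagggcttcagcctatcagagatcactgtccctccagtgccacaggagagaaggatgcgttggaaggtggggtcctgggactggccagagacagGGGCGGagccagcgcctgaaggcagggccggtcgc
Ptgs1: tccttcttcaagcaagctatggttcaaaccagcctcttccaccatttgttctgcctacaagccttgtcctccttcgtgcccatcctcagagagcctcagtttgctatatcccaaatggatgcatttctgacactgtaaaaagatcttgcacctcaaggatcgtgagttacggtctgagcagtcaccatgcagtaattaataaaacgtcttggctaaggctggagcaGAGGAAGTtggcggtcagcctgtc
Hpgds, ETS: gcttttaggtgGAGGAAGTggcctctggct
Hpgds, octamer: ctttactctttATGCAAATacgttggacta
Ptgs2, E-box: caccactacgtCACGTGgagtccgcttt

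The letters GAGGAAGT, the form of ETS site that the factors PU.1 and SpiB are known to prefer, were found in Ptgs1 and Hpgds, that is in 2 of 9 members, and in 3.20% of all windows. In Ptgs1 they lay at bases -24 to -17, counted from -1 at the base before the start, and in Hpgds at -49 to -42. The shorter letters GGAAGT, which lie inside that motif, were found in those genes and in Ltc4s, that is in 3 of 9, and in 23.8% of all windows. The octamer ATGCAAAT, the site of POU factors such as the tuft cell factor encoded by Pou2f3, was found in Hpgds at -174 to -167, where GENCODE annotates an exon of a longer Hpgds transcript, and in 1.74% of all windows. Alox5 held the GC box GGGCGG at -35 to -30, a motif of 4 of 9 members and 35.7% of all windows. Ptgs2 held the E-box CACGTG at 17 to 22 after the start, overlapping the CRE core TGACG on the minus strand at 14 to 18, letters found in 7.15% and 20.8% of all windows. The TATA box TATAAA was found in Tbxas1 and Hpgd and in 13.6% of all windows. The full CRE, TGACGTCA, present in 1.79% of all windows, was not found in the 9 members. These matches describe letters in a window and are not binding sites.

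The targeted gene was lower in the KO library. Spib had 0.592 FPKM from 30 reads in the KO library, against 4.94 FPKM from 247 reads in the WT library, 8.34-fold lower (counting interval 5.70 to 12.6). FPKM, reads scaled by gene length and library size, were deposited by the authors, and whole reads could be recovered from them, for depths of 17658567 reads in the KO library and 17425639 reads in the WT library. Counting intervals are exact Clopper-Pearson intervals at 95% on these reads. They cover counting error only, as if each amplified read were its own molecule, and leave out variation between mice. Since each genotype has 1 library, no difference below has a replicate or a p-value. In whole tissue, more or fewer cells of a type cannot be told apart from more or less RNA per cell. Genes were compared where at least 1 library reached 1 FPKM, and past 2-fold means that log2((KO + 1) / (WT + 1)) is at least 1 or at most -1.

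Alox5 stood highest, Alox5ap and Ptgs2 were higher by smaller steps, and the other 7 members lay between a KO over WT ratio of 0.493 and 1.32. Of the 10 members, 1 was at least 2-fold higher in the KO library, against a background of 1.61% of the 13479 compared genes and 0.854% of the 25421 genes above 0. None was at least 2-fold lower, against 2.51% of compared genes and 1.33% of genes above 0. Members passed the filter of 1 FPKM in 8 cases, of which Alox5 and Alox5ap passed through the KO library alone, and Ltc4s and Tbxas1 were below 1 FPKM in both libraries. The median log2 ratio over all 10 was 0.20, against -0.02 over the genes above 0 and -0.05 over the compared genes. The counting interval lay above 1 for 5 members, against 17.1% of compared genes with recovered reads, below 1 for none, against 27.9%, and spanned 1 for the other 5.

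**Figure D1:**
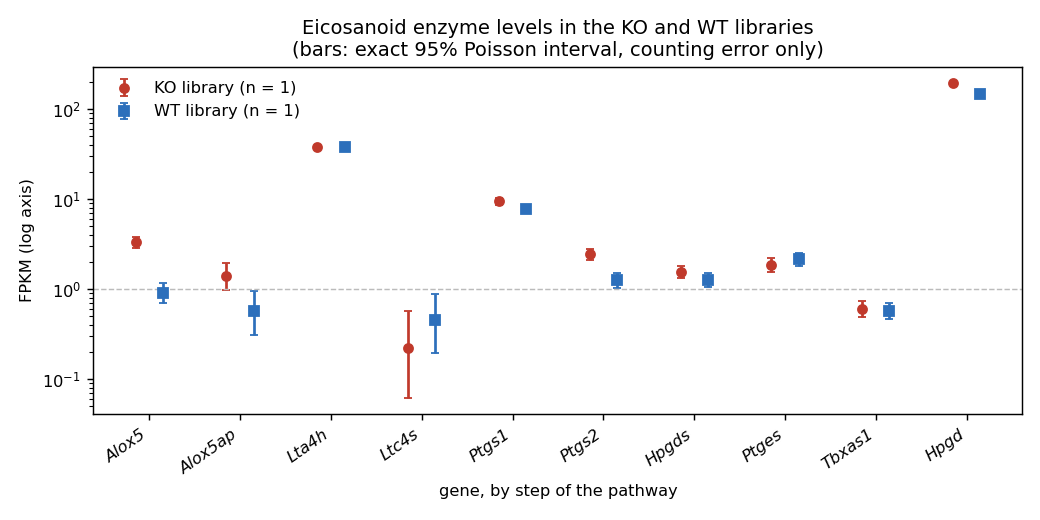
FPKM (log axis) of the 10 eicosanoid genes in the KO library (circles) and the WT library (squares), with exact 95% Poisson intervals of the recovered reads and a dashed line at 1 FPKM. Alox5 lay at 3.31 in the KO library and 0.908 in the WT library, while Lta4h lay at 38.3 in the KO library and 37.7 in the WT library.

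In the leukotriene branch, the first enzyme and its helper had intervals above 1. Alox5 (ENSMUSG00000025701, minus strand of chromosome 6, 116410077 to 116461178, 12 separate exon blocks, GRCm38) had 3.31 FPKM from 240 reads in the KO library, against 0.908 FPKM from 65 reads in the WT library. That is 3.64-fold higher (counting interval 2.76 to 4.87), and its log2 ratio of 1.18 was rank 156 from the top among the 13479 compared genes. With a pseudocount of 5 FPKM the log2 ratio of Alox5 was 0.49, no longer past 2-fold, and with 0.1 FPKM it was 1.76. Alox5ap (ENSMUSG00000060063, chromosome 5, 149264767 to 149288153), the membrane protein that presents arachidonic acid to 5-lipoxygenase, had 1.40 FPKM from 35 reads in the KO library and 0.566 FPKM from 14 reads in the WT library. Its ratio was 2.47 with a counting interval of 1.29 to 4.96, and its log2 ratio of 0.61 was short of 2-fold, whereas with a pseudocount of 0.1 FPKM it was 1.17 and past it.

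The enzymes that act on leukotriene A4 were not higher in the KO library beyond counting error. Lta4h (ENSMUSG00000015889, chromosome 10, 93453411 to 93484875) had 38.3 FPKM from 4125 reads in the KO library and 37.7 FPKM from 4005 reads in the WT library, a ratio of 1.02 with a counting interval of 0.973 to 1.06. Ltc4s (ENSMUSG00000020377, chromosome 11, 50236461 to 50238616), the enzyme of the cysteinyl leukotrienes, had 0.223 FPKM from 4 reads in the KO library and 0.453 FPKM from 8 reads in the WT library. Its ratio of 0.493 has a counting interval of 0.109 to 1.84. That interval spans 1, so no difference was resolved at this depth, although it leaves out a ratio of 2. The strand setting of the counting is not given. In GENCODE the Ltc4s gene overlaps Gm26542 on the opposite strand, which had 0.460 FPKM in the KO library and 0.349 FPKM in the WT library. A floor of 3 reads corresponds to 0.168 FPKM for Ltc4s in the KO library, close to the level listed. Alox5 stood at 14.8 times the FPKM of Ltc4s in the KO library and at 2.01 times in the WT library, a ratio that rests on those few reads.

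Both cyclooxygenases had more reads in the KO library, with the larger ratio for the inducible one. Ptgs2 (ENSMUSG00000032487, chromosome 1, 150100031 to 150108227) had 2.45 FPKM from 198 reads in the KO library and 1.25 FPKM from 100 reads in the WT library, 1.95-fold higher (counting interval 1.53 to 2.51). Its log2 ratio was 0.61, short of 2-fold, and it was 0.91 with a pseudocount of 0.1 FPKM and 0.25 with 5 FPKM. Ptgs1 (ENSMUSG00000047250, chromosome 2, 36230426 to 36252272), whose start region holds the ETS-type letters shown above, had 9.45 FPKM from 648 reads in the KO library and 7.88 FPKM from 533 reads in the WT library. That ratio was 1.20 with a counting interval of 1.07 to 1.35. Ptgs1 remained the more abundant cyclooxygenase in both libraries, and the FPKM of Ptgs2 was 0.259 of that of Ptgs1 in the KO library and 0.159 in the WT library.

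The terminal synthases lay near a ratio of 1. Hpgds (ENSMUSG00000029919, minus strand of chromosome 6, 65117293 to 65144908), the prostaglandin D2 synthase with both an ETS-type and an octamer match near its start, had 1.54 FPKM from 175 reads in the KO library and 1.27 FPKM from 142 reads in the WT library. The ratio of 1.22 has a counting interval of 0.969 to 1.53. Ptges (ENSMUSG00000050737, chromosome 2, 30889471 to 30929863), the inducible prostaglandin E2 synthase, had 1.87 FPKM from 130 reads in the KO library and 2.15 FPKM from 147 reads in the WT library, a ratio of 0.873 with an interval of 0.684 to 1.11. Tbxas1 (ENSMUSG00000029925, chromosome 6, 38875404 to 39084585), the thromboxane synthase, had 0.598 FPKM from 96 reads in the KO library and 0.574 FPKM from 91 reads in the WT library, a ratio of 1.04 with an interval of 0.773 to 1.40. The intervals of all 3 synthases span 1 and leave out a ratio of 2. The strand setting of the counting is not given, and in GENCODE the Tbxas1 gene overlaps Hipk2 on the opposite strand, which had 15.2 FPKM in the KO library and 13.5 FPKM in the WT library. Hpgds likewise overlaps Gm17147 on the opposite strand, which had 0.524 FPKM in the KO library and 1.06 FPKM in the WT library.

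The inactivating enzyme was by far the most abundant member. Hpgd (ENSMUSG00000031613, chromosome 8, 56294585 to 56321043), which oxidises prostaglandins to inactive forms, had 194.6 FPKM from 5782 reads in the KO library and 147.5 FPKM from 4326 reads in the WT library. The ratio was 1.32 with a counting interval of 1.27 to 1.37, a narrow interval because of its many reads. The FPKM of both cyclooxygenases together was 0.0611 of that of Hpgd in the KO library and 0.0619 in the WT library.

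**Figure D2:**
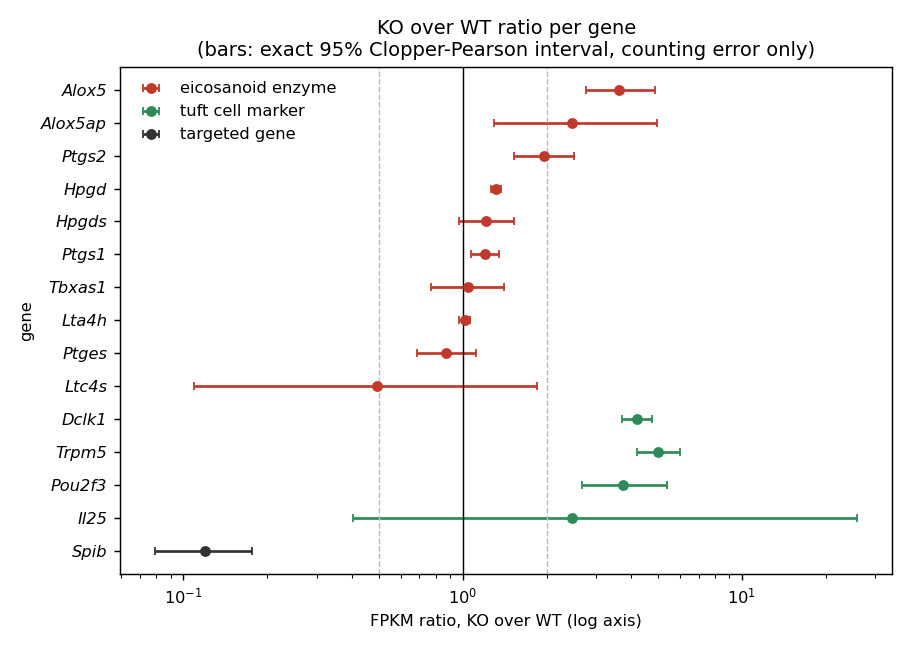
KO over WT ratio of FPKM (log axis) for the 10 eicosanoid genes, 4 tuft cell markers and Spib, with exact 95% Clopper-Pearson intervals that cover counting error only; dashed lines mark 2-fold. The interval of Alox5, 2.76 to 4.87, overlaps that of Dclk1, 3.71 to 4.78, and those of Hpgds and Ptgs1 lie below both.

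By level per length, the order of the members was alike at the top and differed below it. In the KO library the order was Hpgd, Lta4h, Ptgs1, Alox5, Ptgs2, Ptges, Hpgds, Alox5ap, Tbxas1 and Ltc4s. In the WT library it was Hpgd, Lta4h, Ptgs1, Ptges, Hpgds, Ptgs2, Alox5, Tbxas1, Alox5ap and Ltc4s. Alox5 was thus 4 from the top in the KO library and 7 from the top in the WT library. In the KO library the Poisson intervals of neighbours overlapped from Ptgs2 to Alox5ap and between Tbxas1 and Ltc4s. In the WT library they overlapped for each pair of neighbours from Hpgds down to Ltc4s, so that counting error alone leaves the order of those neighbours unresolved.

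**Figure D3:**
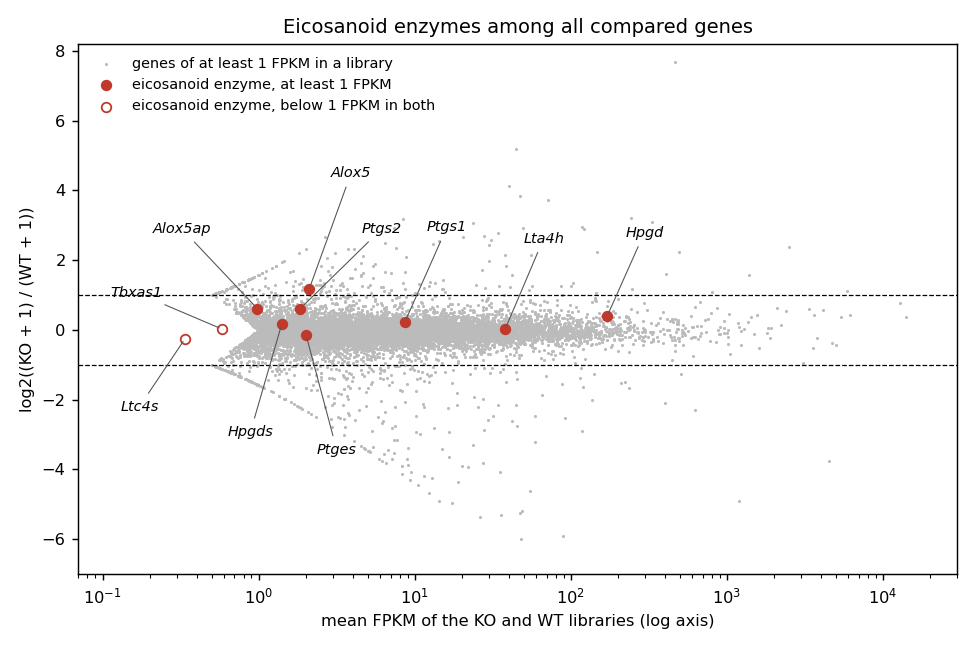
Mean FPKM of both libraries (log axis) against log2((KO + 1) / (WT + 1)) for the 13479 compared genes (grey) and the eicosanoid genes (filled, or open where below 1 FPKM in both libraries); dashed lines mark 2-fold. Alox5 lies above the upper line at 1.18 and the other 9 members lie between the lines.

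The tuft cell markers were mostly higher in the KO library. Of the 28 markers measured, 24 had a log2 ratio above 0 and 4 below. At least 2-fold higher were 11, against 1.61% of compared genes and 0.854% of genes above 0. None was 2-fold lower, against 2.51% of compared genes and 1.33% of genes above 0. The median log2 ratio was 0.79 over all 28, short of 2-fold. Their summed level was 166.6 FPKM in the KO library and 75.8 FPKM in the WT library. The filter of 1 FPKM left 22 of the markers, 7 of which passed it through the KO library alone, and 4 of these 7 are among the 11. With a pseudocount of 5 FPKM 3 of the markers were at least 2-fold higher. Dclk1, a kinase that marks tuft cells, had 4.81 FPKM in the KO library and 1.14 FPKM in the WT library, 4.21-fold higher (counting interval 3.71 to 4.78). Trpm5, the cation channel of taste transduction, had 6.96 FPKM in the KO library and 1.39 FPKM in the WT library. Pou2f3, the lineage factor, had 3.01 FPKM in the KO library and 0.799 FPKM in the WT library, 3.76-fold higher with an interval of 2.68 to 5.40. Il25, the cytokine that tuft cells secrete, was near the floor with 5 reads in the KO library and 2 reads in the WT library, and Gng13, a G-protein subunit, had 1 read in the KO library and 0 in the WT library. Leukocytes also express some genes of the list, such as Vav1, Ptpn6 and Fyb.

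Levels were also set against Dclk1 within each library. The FPKM of Alox5 was 0.688 of that of Dclk1 in the KO library and 0.794 in the WT library. For Alox5ap the share was 0.290 in the KO library and 0.494 in the WT library, and for Ptgs2 it was 0.509 in the KO library and 1.095 in the WT library. Hpgds stood at 0.320 of Dclk1 in the KO library and at 1.11 times Dclk1 in the WT library, and Ptgs1 at 1.96 times Dclk1 in the KO library and 6.88 times in the WT library. These shares depend on the marker chosen, because the tuft cell markers differed in their KO over WT ratios. Rgs13 had a ratio of 6.83 (counting interval 5.51 to 8.54) and Plcb2 a ratio of 1.40 (1.17 to 1.68), against 4.21 for Dclk1. The shares have no replicate, and no test was made of whether members differ from tuft cell markers.

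Among markers of other eicosanoid-making cell types, most mast cell and eosinophil genes were higher in the KO library and most macrophage genes were lower. Of the mast cell list, 11 of 12 genes were measured and 3 compared, with a summed level of 23.2 FPKM in the KO library and 8.34 FPKM in the WT library. At least 2-fold higher were 2 of these 3, against 1.61% of all compared genes. Those were the mucosal mast cell proteases Mcpt1, with 8.98 FPKM in the KO library and 1.79 FPKM in the WT library, and Mcpt2, with 4.20 FPKM in the KO library and 1.06 FPKM in the WT library, related copies that can share reads. Whole reads of Mcpt2 did not follow from its exon length. The smallest pair with its ratio, 4 and 1 reads, gives an interval of 0.391 to 194, which spans 1 and may be too wide. Of the 11 mast cell genes measured, 9 were higher in the KO library and 2 lower, and 8 were below 1 FPKM in each library. The receptor Kit, which gut pacemaker cells also express, had 7.90 FPKM in the KO library and 4.44 FPKM in the WT library. Fcer1a, a subunit of the IgE receptor that defines mast cells, had 14 reads in the KO library and 0 in the WT library, and Mcpt4 was at 0 in the KO library and Cma1 in the WT library. In the eosinophil list, 8 of 10 genes were measured, 4 were compared and 1 was past 2-fold, with a summed level of 12.5 FPKM in the KO library and 4.71 FPKM in the WT library. That gene was Siglecf, which tuft cells also express, at 7.75 FPKM in the KO library and 1.30 FPKM in the WT library, and it made up most of the summed level in the KO library. Of the 8 eosinophil genes measured, 6 were higher in the KO library and 2 lower. The lower ones were Prg2 and Prg3, with counting intervals that span 1. Prg2, the major basic protein gene, had 0.473 FPKM in the KO library and 1.10 FPKM in the WT library. Prg3 had 1 read in the KO library and 4 reads in the WT library, and the peroxidase gene Epx had 3 reads in the KO library and 2 reads in the WT library. Intervals lay above 1 for Ccr3 (50 reads in the KO library, 24 in the WT library), Il5ra (22 and 8) and Ear2 (21 and 9). The part of these cells in the levels of Alox5, Alox5ap and Hpgds was not tested.

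Macrophage genes were lower on balance, with 12 of 12 compared, none past 2-fold, 4 with a log2 ratio above 0 and 8 below, and a summed level of 157 FPKM in the KO library and 225 FPKM in the WT library. Lyz2, the macrophage lysozyme, had 60.4 FPKM in the KO library and 91.9 FPKM in the WT library. Neutrophil genes were nearly absent in both libraries, with 8 of 10 measured and 1 compared. S100a8, S100a9, Camp, Ngp and Elane were at 0 in the KO library, and Elane and Cxcr2 were at 0 in the WT library. Their summed level of 5.53 FPKM in the KO library and 4.59 FPKM in the WT library was mostly Retnlg, with 4.94 FPKM in the KO library and 2.64 FPKM in the WT library. The platelet list, which bears on Tbxas1, had 7 of 8 genes measured, 2 compared and none past 2-fold. Its summed level of 13.8 FPKM in the KO library and 24.4 FPKM in the WT library was mostly Gp1bb, with 9.94 FPKM in the KO library and 20.1 FPKM in the WT library, and Tubb1 was at 0 in the WT library. Of the 7 platelet genes, 5 were below 1 FPKM in both libraries, and the median log2 ratio of all 7 was -0.003.

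Structural cell types stayed within 2-fold, and lymphocytes were lower. None of the compared fibroblast, smooth muscle, endothelial or absorptive enterocyte markers reached 2-fold, and their median log2 ratios were -0.04, 0.11, -0.05 and 0.02 in that order. The collagen gene Col6a1 had 48.1 FPKM in the KO library and 49.4 FPKM in the WT library, and the actin gene Acta2 had 208 FPKM in the KO library and 210.2 FPKM in the WT library. Acta2 was the 1 compared smooth muscle gene with a log2 ratio below 0. The other 5 lay above 0, the highest being Actg2 at a ratio of 1.45 (counting interval 1.38 to 1.54). The endothelial gene Plvap had 33.0 FPKM in the KO library and 39.5 FPKM in the WT library, and Fabp2, the intestinal fatty acid binding protein, had 4103 FPKM in the KO library and 5325 FPKM in the WT library. Enterocyte genes went both ways, 6 above a log2 ratio of 0 and 6 below, with Fabp1 at a ratio of 1.57 (counting interval 1.52 to 1.63). Enterocyte markers, which define the labelled tissue, were above 1 FPKM in both libraries for all 12 genes of the list. Of the 9 compared genes each of the B and plasma cell list and of the T cell list, 5 and 3 were at least 2-fold lower and none was higher. Among all compared genes 2.51% were at least 2-fold lower. The summed levels of the 2 lists were 139.8 and 31.1 FPKM in the KO library and 307.5 and 71.8 FPKM in the WT library. Jchain, the joining chain of secreted antibodies, had 57.8 FPKM in the KO library and 180.5 FPKM in the WT library, and Mzb1, a chaperone of antibody secretion, had 2.94 FPKM in the KO library and 10.8 FPKM in the WT library. The B cell coactivator gene Pou2af1 had 2.27 FPKM in the KO library and 7.18 FPKM in the WT library, and Cd79b, a subunit of the B cell receptor, had 2.65 FPKM in the KO library and 7.38 FPKM in the WT library. Of the T cell list, the granzyme genes Gzma and Gzmb had 17.4 and 6.35 FPKM in the KO library and 38.4 and 15.9 FPKM in the WT library, and Trac, the constant part of the T cell receptor alpha chain, had 1.09 FPKM in the KO library and 3.93 FPKM in the WT library. Of the T cell genes compared, 4 passed the filter through the WT library alone, as did 2 of the B and plasma cell genes. With a pseudocount of 5 FPKM, 1 gene of the B and plasma cell list and 0 of the T cell list were at least 2-fold lower. The part of these lymphocyte differences in the levels of Spib and of the members was not tested.

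**Figure D4:**
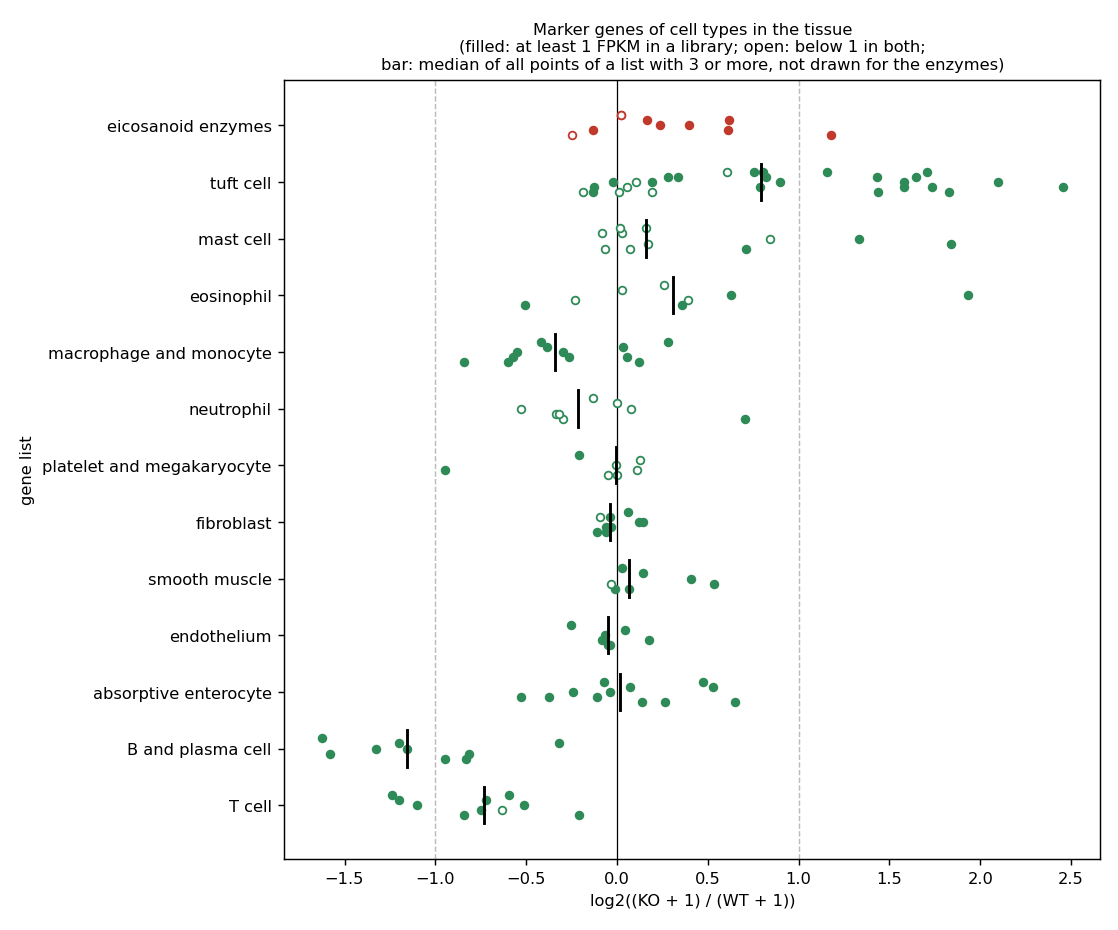
Log2((KO + 1) / (WT + 1)) of each measured gene in the eicosanoid set and in 12 cell type marker lists; filled points reached 1 FPKM in a library, open points did not, black bars are medians of all measured genes of a list, and dashed lines mark 2-fold. The tuft cell median lies at 0.79, the macrophage median at -0.34 and the B and plasma cell median at -1.15.

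Beyond the 10 members, 67 genes of the wider pathway were listed by role, of which 63 were measured and 43 compared. At least 2-fold higher were 2 of these 43 and 2-fold lower was 1, all of them phospholipases A2, and the remaining 40 lay between. Among all compared genes, 1.61% were at least 2-fold higher and 2.51% at least 2-fold lower. The list of arachidonate release and membrane recycling held 17 compared genes, with a median log2 ratio of 0.05. Pla2g4c, a cytosolic phospholipase A2, had 924 FPKM from 61125 reads in the KO library and 3.54 FPKM from 231 reads in the WT library. Pla2g2e, a secreted phospholipase, had 1.42 FPKM from 23 reads in the KO library and 0.0626 FPKM from 1 read in the WT library. Its ratio was 22.7 with a counting interval of 3.69 to 935, and it passed the filter through the KO library alone. Pla2g5, another secreted form, had 0.550 FPKM from 28 reads in the KO library and 5.55 FPKM from 279 reads in the WT library, 10.1-fold lower with an interval of 6.84 to 15.5. It passed the filter through the WT library alone. With a pseudocount of 5 FPKM only Pla2g4c of these 3 was past 2-fold. The enzyme that typically supplies arachidonic acid to both branches, Pla2g4a, was not among them, with 5.09 FPKM in the KO library and 4.31 FPKM in the WT library, a ratio of 1.18 with an interval of 1.05 to 1.34. The most abundant gene of that list over both libraries other than Pla2g4c was Lpcat3, which returns fatty acids to membranes, at 89.1 FPKM in the KO library and 79.1 FPKM in the WT library.

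The remaining enzymes and transporters of the pathway lay within 2-fold. Of the other prostanoid synthases, 6 of 8 were compared, with a median log2 ratio of -0.06. Fam213b, a prostaglandin F synthase, had 93.8 FPKM in the KO library and 103 FPKM in the WT library. The widest of that list was Cbr1, a carbonyl reductase that can act on prostaglandin E2, at 80.8 FPKM in the KO library and 58.4 FPKM in the WT library, named after its values were seen. Prostanoid inactivation and transport had 4 compared genes and a median of -0.09, with the prostaglandin reductase Ptgr1 at 39.0 FPKM in the KO library and 38.0 FPKM in the WT library. Leukotriene conversion, export and inactivation had 8 compared genes and a median of 0.03, and its most abundant gene Cyp4f14, an enzyme that oxidises leukotriene B4, had 517 FPKM in the KO library and 533 FPKM in the WT library. Mgst2, a microsomal glutathione transferase that can also form leukotriene C4, had 39.8 FPKM in the KO library and 35.8 FPKM in the WT library, well above the level of Ltc4s. This gene too was named after its values were seen.

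Other lipoxygenases and the prostanoid receptors were mostly below 1 FPKM, whereas the leukotriene receptors measured were not. Of the other lipoxygenases 1 of 5 measured was compared, Alox15, the 12/15-lipoxygenase of macrophages and eosinophils in mice, with 1.27 FPKM from 55 reads in the KO library and 0.772 FPKM from 33 reads in the WT library. Its ratio of 1.64 has an interval of 1.05 to 2.61. Of the 9 prostanoid receptors, 2 were compared, and the most abundant was the prostaglandin E2 receptor gene Ptger4, with 6.93 FPKM in the KO library and 7.03 FPKM in the WT library. All 5 leukotriene receptor genes measured were compared, with a median log2 ratio of -0.11. The leukotriene B4 receptor gene Ltb4r2 had 3.27 FPKM in the KO library and 4.79 FPKM in the WT library. Its ratio was 0.683 with an interval of 0.510 to 0.910. Gpr17 of the same list had 1.08 FPKM from 99 reads in the KO library and 1.65 FPKM from 149 reads in the WT library. That ratio was 0.656 with an interval of 0.503 to 0.851. For Ltb4r1 and Cysltr2 the intervals span 1. Cysltr1, a cysteinyl leukotriene receptor named after its values were seen, had 1.05 FPKM from 95 reads in the KO library and 0.837 FPKM from 75 reads in the WT library, a ratio of 1.25 with an interval of 0.914 to 1.71.

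**Figure D5:**
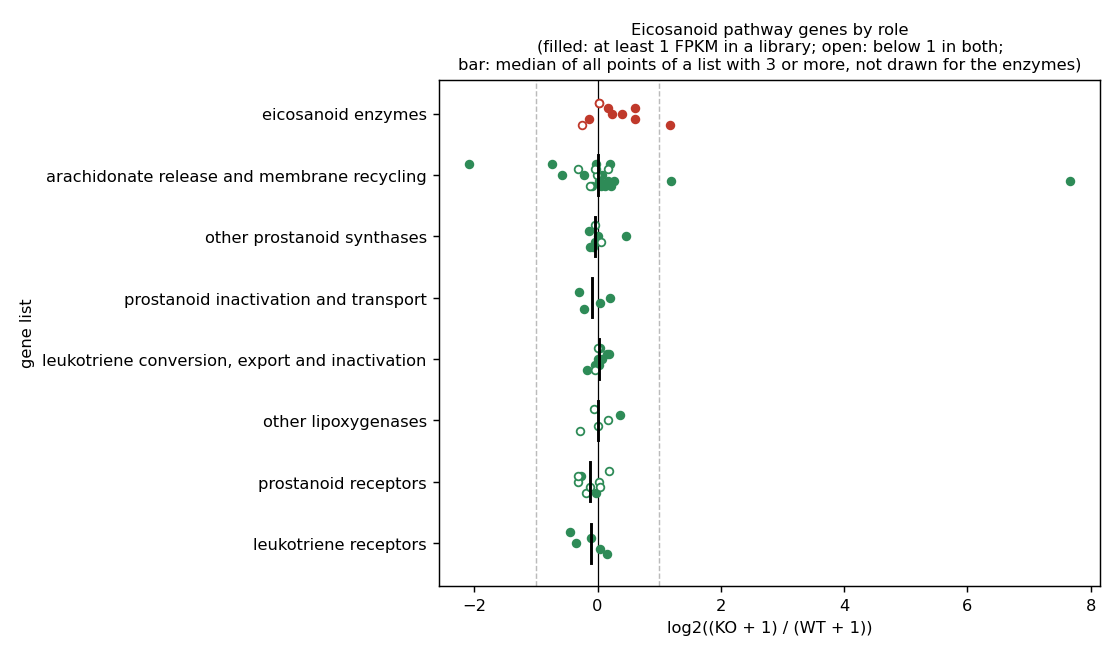
Log2((KO + 1) / (WT + 1)) of each measured gene in the eicosanoid set and in 7 lists of the wider pathway, drawn as in the plot of cell type markers. Outside the set, the points past the dashed 2-fold lines are Pla2g4c at 7.67, Pla2g2e at 1.19 and Pla2g5 at -2.08.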

How the data were processed

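RNA of small intestine was taken up in TRIzol and cDNA was amplified by SMART-Seq II, per the labels' protocols. The authors deposited 1 table of FPKM values, in which reads are divided by gene length and library size. The submitters' processing notes name Bowtie2 2.2.3, HTSeq 0.6.0 and the build mm10 and say nothing of their roles. Annotation release, filters, strand setting and read layout are not given.

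Libraries were grouped by title. Gene IDs were joined to GENCODE M21 (GRCm38, the assembly of mm10), which held 27222 of them. FPKM multiplied by summed exon length stepped in whole units for 90.7% of KO and 90.6% of WT values above 0, within 0.01 of a read, which gave library depths and reads. For the remaining genes, including Ltb4r2, Cbr1 and Cyp4f14, the smallest whole pair with the observed ratio was used, which can widen intervals. All 10 members had whole reads. A floor is 3 reads. FPKM are not counts and there is no replicate, so no test was run. The members and the 20 gene lists were chosen with earlier results of these data known. Of the listed genes, 10 had no matching symbol and were not analysed here, and a symbol with several rows was taken at its highest row. Named are Spib, all members, Dclk1, Trpm5, Pou2f3 and Il25, and of each other list the most abundant gene and those past 2-fold, of these at most the 4 widest per marker list. Other genes were named after their values were seen, also where they bear on a defining marker. Alternatives were the pseudocount, the filter and the scaling. Calculations used Python 3.11.15, numpy 2.4.6, pandas 2.3.3 and scipy 1.17.1, and read recovery and intervals were tested on simulated data.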

Additional observations from a re-analysis of the deposited data

How the results depend on the processing

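No paired analysis was possible because each genotype had 1 library, and no replicate could be left out. The direction of Spib held under every alternative run: its log2 ratio was -2.86 with a pseudocount of 0.1 FPKM, -0.83 with 5 FPKM, short of 2-fold, and -2.48 after rescaling to TPM, where 1 TPM is a smaller pseudocount than 1 FPKM. Members at least 2-fold higher numbered 2 with a pseudocount of 0.1 FPKM (Alox5 and Alox5ap) and 0 with 5 FPKM. Over all genes, those at least 2-fold higher numbered 355 and those lower 575 with a pseudocount of 0.1 FPKM, 61 and 122 with 5 FPKM, 537 and 791 after rescaling to TPM, and 97 and 193 among genes of at least 5 FPKM. The median log2 ratio of the 10 members ranged from 0.11 to 0.26 over these settings, and no called value reversed. Scaling the KO library to a median log2 ratio of 0 put the median of all compared genes at -0.004, against -0.05 as deposited, and left the count of members past 2-fold at 1. Of the values of single members and of the lists, 383 stayed within their interval or 1.5 times their count and 44 moved beyond. Among these, the medians of neutrophil genes and other lipoxygenases, which rest on 1 compared gene each, changed sign after rescaling to TPM and without a filter. Depth limits Ltc4s and Il25, which rest on 12 and 7 reads over both libraries.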
